A study of Capra hircus with 6 samples.

Results

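In goat (Capra hircus) fetal fibroblasts, 122 named protein-coding genes had reads in every library of cells kept with a graphene oxide and silver nanocomposite and not a single read in any control library. They were chosen by those counts, with 0 reads in the 3 control libraries and at least 1 in each of the 3 exposed libraries. At least 15 reads over the exposed libraries were also required. Names starting with LOC, SLC, ZNF, ZFP, ZSCAN, RPL, RPS, MRPL or MRPS were left out. Zinc finger genes under other names, such as SALL2, stayed in. The chosen genes are 122 of 11374 rows in the gene table, of which 9151 carry a name. Because the difference between exposed and control reads chose these genes, it is described here and not tested. The other measures, namely circular RNA reads, reads of neighbouring genes and reads of genes that work with them, were not used in the choice.

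The exposed cells were cultured for 10 weeks in DMEM/F-12 medium with 10% fetal bovine serum and 0.5 µg/mL GO-AgNPs, and the control cells were kept at 0 µg/mL. The cells are labelled as fetal fibroblasts with an age of 50 days, and cultures were passaged every 2 to 3 days. Each group has 3 libraries of ribosomal RNA-depleted total RNA, and the labels do not say whether they came from separate cultures, so the spread between them may be technical. Genotype, sex and strain of the goats are not given in the labels.

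Fibroblasts make collagen and other matrix and divide in culture, and most of what a dividing cell needs, such as membrane traffic, RNA export, protein turnover and energy metabolism, is run by genes that are active in nearly all cell types. Homeobox factors, keratins of simple epithelia, hormone receptors and lineage factors such as SOX10 are instead known for use in particular tissues. Both kinds were among the 122.

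The gene table is shallow, with 155452 to 218493 reads per exposed and 203786 to 245958 per control library. Of its rows, 1736 had no control read and 2652 had no exposed read, and the mirror image of the rule, reads in every control library and none in exposed ones, was met by 183 named genes. Fibroblast markers were counted in both groups, with 9 of the 10 listed present and a summed level of 18686 to 22900 CPM (gene reads scaled to a common library size) in exposed and 11583 to 13323 CPM in control libraries. Most of these reads were of COL1A1 and COL1A2, and the markers did not move together. COL1A1, COL1A2, VIM and DCN rose after scaling (log2 fold changes 0.98 to 1.09). FN1 and PDGFRA had log2 fold changes of -0.30 and -0.91 that did not pass (edgeR adjusted p 0.0922 and 0.0813). PDGFRB, THY1 and LUM were not tested. The sources used here name no read counter and no strand setting. It is therefore unknown whether reads of a gene and of one overlapping it on the other strand were kept apart. In these bulk samples, fewer cells of a type and less RNA per cell cannot be told apart.

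The 122 genes were thinly counted. They held 894, 802 and 1078 reads in exposed replicates 1 to 3, which is 0.409%, 0.516% and 0.671% of the gene reads. The median gene had 19 reads over the 3 exposed libraries, the least counted 15 and the most counted, TLX2, 57. Thus 63 genes had 15 to 19 reads, 36 had 20 to 29 and 23 had at least 30. Against a floor of 3 reads over the 3 control libraries, equal to 3.90 CPM, the exposed level was at least 8.54-fold to at least 32.4-fold higher, with a median bound of 10.8. The bounds take the exposed reads without error. For the 20 most counted genes by mean CPM they ran from 18.2 to 32.4, and from 11.2 to 19.9 without control replicate 2. Reads were not divided by transcript length, so an order by reads is not an order of transcript levels.

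**Figure D1:**
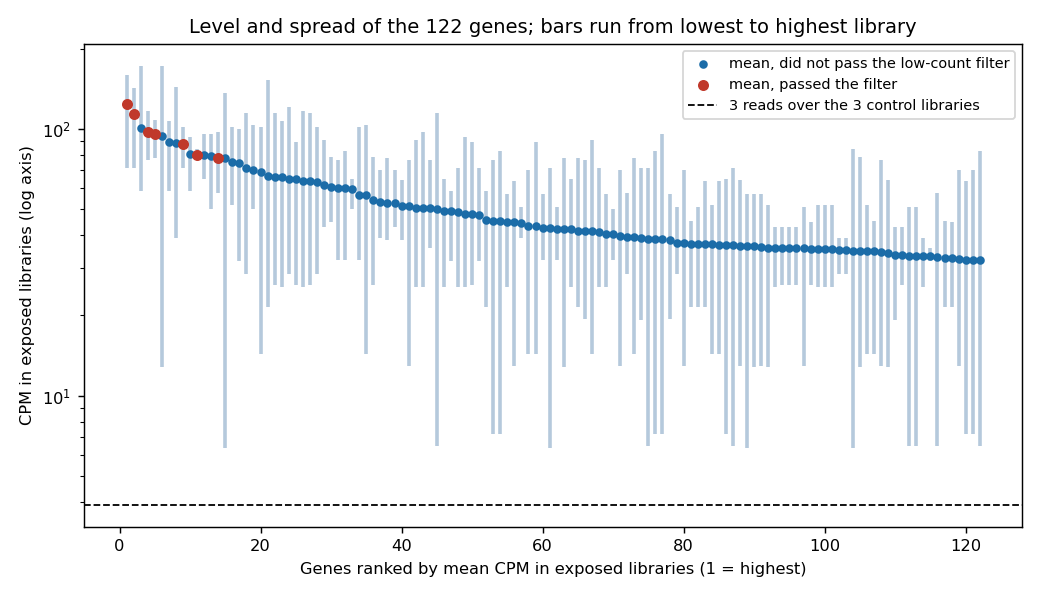
CPM in the exposed libraries (log axis) of the 122 genes, ranked by their mean; points are means, bars run from the lowest to the highest of 3 libraries, red points passed the low-count filter, and the dashed line is the floor of 3 reads over the control libraries (3.90 CPM). The rule places every bar above the floor, and 33 genes span more than 5-fold between exposed libraries.

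The exposed libraries did not carry these reads evenly. The highest exposed library was 3.15-fold above the lowest for the median gene, within 2-fold for 32 genes and over 5-fold for 33. NXF1 had the narrowest ratio, 1.10, and SPARCL1 the widest, 21.3. For 55 genes a single exposed library held more reads than the other two together, and this was replicate 3 for 31 of them, against 12 each for replicates 1 and 2. The scaled library sizes of the exposed libraries lay close together, at 139724 to 156691 reads. At least 5 reads in every exposed library were found for 34 genes, and a single read in one of them for 18.

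Only 7 of the 122 genes passed the low-count filter of the fit over all genes: TLX2, SPPL3, ATG13, MAP3K14, MPP1, NXF1 and SALL2. All 7 were past an edgeR adjusted p of 0.05, a threshold that 24.9% of the 2148 tested genes passed as higher in exposed cells. The rule fixed that direction, so nothing is read from the count. The other 115 genes were not tested.

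The threshold of 15 reads cuts through a continuous range. Just inside it were 15 genes with 15 reads, among them ARF1, PSMC2, BORA, OVOL2, SLIT1 and IL17C, and 21 genes with 16, among them FADD, SOX10, HYAL2, YTHDF1, CORO1B and PFKM. Just outside it were 21 genes with 14 reads and 8 with 13 that met the rest of the rule, among them DUSP4, APH1A, TRAF7, OSR1, FST, LAMTOR4, SRPK2 and NR1I2.

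Among 16 genes of transcription and chromatin, TLX2, a homeobox factor known for enteric neuron development in mice, had 22, 10 and 25 reads in exposed replicates 1 to 3, at least 32.4-fold above the control floor. SALL2, a zinc finger factor of the spalt family, had 15, 11 and 9 reads, at least 19.9-fold higher. In these genes the lowest exposed library still had 9 reads or more. PRRX2, a homeobox factor of limb and craniofacial mesenchyme, had 14, 14 and 5 reads, at least 18.8-fold higher, with replicate 3 the lowest. Other factors in this class were GLI2, which carries out hedgehog signalling (12, 3 and 4 reads), SOX10, a factor of neural crest and glia (1, 10 and 5), OVOL2, a repressor of mesenchymal genes in epithelia (5, 5 and 5), and the chromatin proteins AEBP2, PHF12 and BRMS1L with 18 to 22 reads each.

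Among 21 genes of signalling, MAP3K14, the kinase that starts noncanonical NF-kB signalling, had 12, 14 and 17 reads and was at least 24.5-fold higher. Midkine (MDK), a secreted heparin-binding growth factor, had 9, 15 and 16 reads, at least 22.8-fold higher. CRHR2, a receptor for corticotropin-releasing hormone and urocortins, had 11, 4 and 18 reads. MAP3K14 was even over the exposed libraries, whereas CRHR2 was uneven. FADD, the adaptor that links death receptors to caspases, had 7, 8 and 1 reads, and PYCARD, the inflammasome adaptor, had 6, 3 and 8. SEMA4D and PLXNA2, a semaphorin and a plexin of cell guidance, had 20 reads each, 11 and 14 of them in replicate 3. LGR5, a receptor for R-spondins on stem cells of several epithelia, had 14, 2 and 3 reads, mostly in replicate 1.

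The 18 genes of matrix, adhesion and cytoskeleton included HAS1, a synthase of hyaluronan, with 10, 11 and 15 reads (at least 20.5-fold higher), and HYAL2, a hyaluronidase that cuts it, with 6, 4 and 6. MPP1, a palmitoylated scaffold of the membrane skeleton, had 14, 10 and 16 reads, at least 22.8-fold higher. These 3 genes were spread evenly over the exposed libraries. ITGB4, the integrin chain of hemidesmosomes, had 8, 10 and 16 reads. SPARCL1, a matrix glycoprotein related to SPARC, had 14 and 19 reads in replicates 1 and 2 but 1 read in replicate 3. KRT19, a keratin of simple epithelia, had 9, 13 and 14 reads, at least 20.5-fold higher.

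KRT19 and SOX10 stand in marker lists of other cell types. Of the 5 epithelial markers listed, KRT19 and KRT8 had reads, all in exposed libraries. KRT8 had 4, 0 and 10 exposed reads, and the summed epithelial level was 84.2 to 153.2 CPM in exposed libraries with 0 in controls. KRT19 is among the 122, so the rule fixed its 0 control reads, and only KRT8 in this sum was not chosen by it. EPCAM, CDH1 and KRT18 have no row under these names in the gene table, so their reads are unknown. In the neural list, SOX10 is the only 1 of 4 markers in the gene table. It is among the 122, so the rule placed its reads in exposed libraries alone, and nothing is read from this list. The summed levels of the endothelial list ran from 0 to 25.5 CPM in exposed and from 27.5 to 36.9 CPM in control libraries, and those of the immune list from 149.0 to 255.3 and from 71.1 to 124.2 CPM. The endothelial level is that of CDH5 alone, the only 1 of 4 markers in the gene table. In the immune list 2 of 5 are in it, and CSF1R held most of their reads (23, 23 and 40 exposed, 18, 33 and 16 control). In the muscle list, with 2 of 4 markers in the gene table, the levels were 0 in exposed and 10.1 to 27.5 CPM in control libraries. No marker of the adipocyte or the germ and pluripotent lists has a row in the gene table, so their reads are unknown. The part of other cell types in the reads of the 122 genes was not tested.

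**Figure D2:**
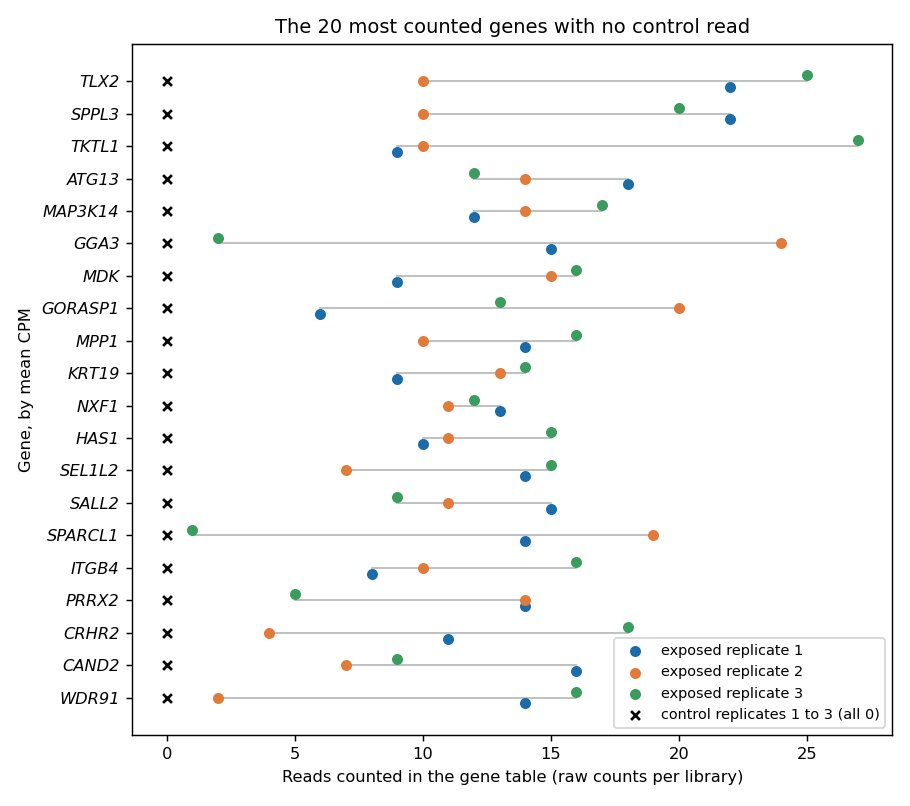
Raw reads per library of the 20 genes with the highest mean CPM; coloured points are the 3 exposed libraries and black crosses the 3 control libraries, all at 0. GGA3 and SPARCL1 have 2 reads and 1 read in exposed replicate 3, whereas NXF1, ATG13 and MAP3K14 have 11 to 18 reads in each exposed library.

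Membrane traffic, autophagy and the lysosome gave 15 genes with 14.2% of the reads. SPPL3, an intramembrane protease of the Golgi that sheds glycosyltransferases, had 22, 10 and 20 reads, at least 29.6-fold higher. ATG13, a subunit of the kinase complex that starts autophagy, had 18, 14 and 12 reads, at least 25.0-fold higher. GORASP1, which tethers Golgi stacks, had 6, 20 and 13 reads, and WDR91, a regulator of endosome maturation, had 14, 2 and 16. GGA3, a clathrin adaptor between Golgi and endosomes, had 15, 24 and 2. SPPL3 and ATG13 were thus high in every exposed library, while GGA3 and WDR91 each had one library at 2 reads. ARF1, the small GTPase that recruits Golgi coats in all cells, had 4, 6 and 5 reads, and the lysosomal galactosidase GLA had 1, 4 and 18.

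Among 15 metabolic genes, TKTL1, related to transketolase of the pentose phosphate pathway, had 9, 10 and 27 reads, at least 26.2-fold higher. IDH3B, a subunit of a citric acid cycle dehydrogenase, had 7, 4 and 19 reads, and COX15, needed to make the heme of cytochrome oxidase, had 4, 8 and 18. These 3 genes had their highest count in replicate 3. FASN, fatty acid synthase, had 6, 8 and 4 reads, ELOVL1, an elongase of very long-chain fatty acids, 10, 7 and 10, and PFKM, a phosphofructokinase of glycolysis, 8, 6 and 2.

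The cell cycle gave 9 genes. WEE1, the kinase that holds CDK1 inactive before mitosis, had 14, 6 and 8 reads. TUBGCP2, a subunit of the gamma-tubulin ring complex that nucleates microtubules, had 10, 15 and 4, and CDCA3 8, 9 and 6. Separase (ESPL1), which cuts cohesin at anaphase, had 2, 8 and 10 reads and the Aurora A activator BORA 5, 3 and 7.

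RNA handling gave 10 genes and protein folding and turnover 9. NXF1, the main export receptor of mRNA, had 13, 11 and 12 reads, at least 20.5-fold higher, and was the most even gene of all. SNRPD1, a core protein of spliceosomal particles, had 9, 11 and 7 reads. SEL1L2, related to an adaptor of endoplasmic reticulum quality control, had 14, 7 and 15, and CAND2, related to the cullin exchange factor CAND1, had 16, 7 and 9. PSMC2, a proteasome ATPase, had 7, 3 and 5. SNRPD1, ARF1 and PSMC2 belong to machinery that dividing cells use, and they too had 0 reads in all 3 control libraries. A count of 0 over these shallow libraries allows up to the floor of 3 reads.

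Circular RNAs gave a separate reading of the same loci. A circular RNA is counted by reads across its back-splice junction, which were not used to choose the genes. Of the 122 genes, 12 hosted a circular RNA (9.84%), against 1586 of the 9151 named genes (17.3%). For 11 of these 12 hosts a junction read was found in a control library, where the gene table had none, and for 4 in an exposed library. Of the 14 circular RNAs of these hosts 71.4% had control reads alone, near the 73.9% of all 3503 circular RNAs. The 14 circular RNAs held 54 of 17348 control junction reads and 11 of 4287 exposed ones.

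SPPL3 had 52 exposed gene reads and none in controls, but its exonic circular RNA (chromosome 17, 8086217 to 8088238, plus strand) had 4 junction reads in control replicate 1 and none in the other libraries. MPP1, with 40 exposed gene reads, had an exonic circular RNA on scaffold LWLT01000053.1 (229435 to 229966, minus strand) with 1 and 2 reads in control replicates 1 and 2. The exonic circular RNA of ADIPOR2, an adiponectin receptor (chromosome 5, 107134830 to 107145803, plus strand), had 2 reads in each control library and none in exposed ones. For these 3 genes the gene reads lay in exposed and the junction reads in control libraries.

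ELOVL1 hosted an intronic circular RNA (chromosome 3, 18111704 to 18111884, minus strand) with 2, 1 and 1 control reads, and TFDP2, a partner of E2F factors, an exonic one (chromosome 1, 126500527 to 126507726, plus strand) with 1, 2 and 1. Neither had an exposed junction read. UCK2, a pyrimidine salvage kinase, had 0, 2 and 1 control reads of its exonic circular RNA, PEX6, a peroxisomal ATPase with 5, 6 and 8 exposed gene reads, had 2, 0 and 0, and AEBP2 had 3 control reads over 2 circular RNAs. MYRF, a membrane-bound transcription factor of myelinating cells, had 6 control reads, all in replicate 3, and 1 exposed read.

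PALM2AKAP2, which encodes a membrane and kinase anchoring protein, had the most junction reads. Its exonic circular RNA (chromosome 8, 99443219 to 99445631, plus strand) had 2, 7 and 6 control and 0, 1 and 4 exposed reads, so the groups overlapped. LZTS2, a leucine zipper protein, was the exception among the hosts, with 2 exposed and no control junction reads. The sources used here name no goat build for these positions, which are given as deposited.

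The circRNA table was deeper in controls, with 4807 to 6944 junction reads per control and 1289 to 1586 per exposed library, so the share is compared. The 12 hosts took 0.0708%, 0.310% and 0.378% of the exposed and 0.304%, 0.259% and 0.395% of the control junction reads. The groups overlapped, at 0.253% ± 0.162 and 0.319% ± 0.0694 (SD over 3 libraries a group). The two-sided exact permutation test gave p = 0.7, and the smallest p that 20 assignments allow is 0.1. With 3 libraries a group, no difference of any size could reach 0.05. Per 100 gene reads of the library, the hosts had 0.00226 junction reads in exposed and 0.00833 in control libraries. All circular RNAs together had 0.821 and 2.64, so both were lower in exposed libraries. Of the 14 circular RNAs, 10 had control reads alone (71.4%), as did 73.9% of all 3503 listed. None passed the low-count filter, so none was tested singly. No lncRNA among the 431 transcripts, of which 135 have an associated gene, was annotated to any of the 122 genes.

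**Figure D3:**
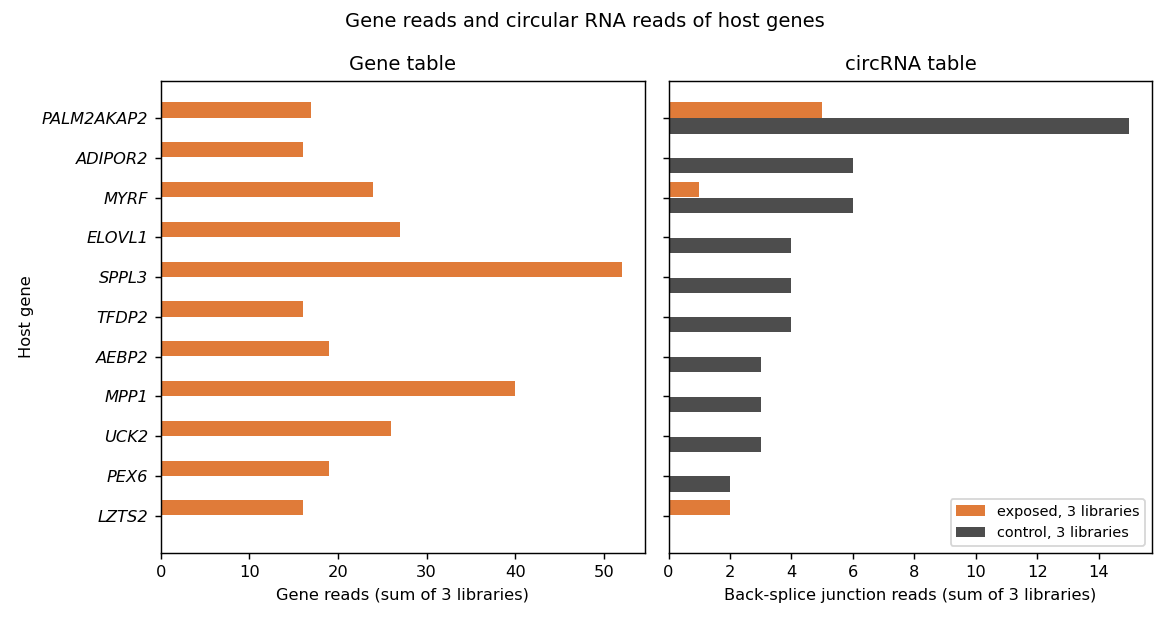
Gene reads (left) and back-splice junction reads (right), each summed over 3 libraries, for the genes named here that host a circular RNA; orange bars are exposed and dark bars control libraries. Gene reads are present in exposed libraries alone by the rule, while all hosts shown but LZTS2 have junction reads in control libraries.

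Few genes next to the 122 were counted well enough to test. The RefSeq table placed 110 of the 122 genes, and 47 of them had another gene overlapping or within 1 kb (42.7%), against 47.9% of the 8439 placed genes of the table. An overlapping gene was found for 21. Of 31 such neighbours in the gene table, 7 were tested, none passed as higher and 3 passed as lower in exposed cells, where 24.9% and 26.7% of all tested genes did. At an unadjusted edgeR p under 0.05 there were also 0 higher neighbours, and the DESeq2 Wald test called 2 higher and 3 lower of 20. Leaving out 1 library at a time, edgeR called 0 to 2 higher, with 2 called without control replicate 1 and without control replicate 2. Of the 24 neighbours that were not tested, 13 had a higher and 11 a lower mean CPM in exposed libraries.

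TMEM223, beside NXF1, had 48, 40 and 65 exposed and 213, 238 and 161 control reads, so every exposed library lay below every control. Its log2 fold change was -1.23 ± 0.20 SE (edgeR adjusted p = 2.66e-05), next to a gene with reads in exposed libraries alone. CLCC1, a chloride channel gene beside GPSM2, had 2, 2 and 1 exposed and 27, 24 and 22 control reads and fell by 3.04 (SE 0.63, edgeR adjusted p = 0.000416). DDX11, a helicase gene placed over WASHC1, fell by 0.73 (SE 0.21, edgeR adjusted p = 0.00611), a call lost without exposed replicate 2 (adjusted p = 0.0770). The remaining 4, NUP188, NOP56, NUP85 and RPL32, had log2 fold changes of 0.47 to 1.15 that did not pass (edgeR adjusted p 0.0881 to 0.449).

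Genes that act with the 122 were read next. A set of 80 family members, complex partners and receptors was named after the 122 genes were known, and 59 of them are in the gene table. Of these, 50 had control reads. After scaling, 26 of the 59 were lower and 33 higher in exposed libraries by mean CPM, with 50.0% lower among the other named genes with a read. Of 16 tested, 2 rose, 2 fell and 12 did not reach the threshold, where 24.9% and 26.7% of all tested genes passed as higher and lower. The log2 fold changes of the tested partners had a median of 0.00, beside -0.02 over all 2148 tested genes.

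Some partners were counted mainly in control libraries. TUBGCP3, which sits beside TUBGCP2 in the gamma-tubulin complex, had 6, 6 and 0 control and no exposed reads. WEE1 had reads in exposed libraries alone, while PKMYT1, the related CDK1 inhibitory kinase, had 15, 18 and 16 exposed and 73, 74 and 69 control reads (log2 -1.37 ± 0.30 SE, edgeR adjusted p = 0.000572).

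Other partners had most of their reads in exposed libraries. In noncanonical NF-kB signalling, NFKB2, the precursor that MAP3K14 signalling processes, had 7, 4 and 7 exposed reads and 1 control read, and the receptor TNFRSF12A had 12, 4 and 12 and 1. In the same module RELB, the usual partner of the NFKB2 product, had 2 exposed reads and 3, 13 and 0 control reads. TRAF3, which keeps MAP3K14 low, had 2 exposed reads and 4, 2 and 4 control reads. The kinase CHUK had 0 exposed reads and 5, 0 and 0 control reads, so the control reads of RELB and CHUK lay mostly or wholly in 1 library. The midkine receptor PTPRZ1 had 7, 9 and 19 exposed reads and 1 in each control library, whereas PTN, the close relative of midkine, had 58 to 93 exposed and 90 to 161 control reads and a log2 fold change of -0.01 ± 0.22 SE (edgeR adjusted p = 0.959). Aurora A (AURKA) had 26 exposed reads and 1 control read beside BORA. KRT8 and HAS3, relatives or partners of KRT19 and HAS1, had 14 and 11 exposed reads and none in controls. Apart from PTN, these genes did not pass the low-count filter and were not tested.

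The better counted relatives allowed a test. PFKL, the liver phosphofructokinase related to PFKM, had 37, 28 and 33 exposed and 9, 13 and 9 control reads and rose (log2 2.42 ± 0.39 SE, edgeR adjusted p = 2.66e-05), while the platelet form PFKP was at 0.02 ± 0.22 SE (adjusted p = 0.934). SPARC, related to SPARCL1, had 183, 233 and 195 exposed and 204, 294 and 194 control reads and after scaling rose by a log2 of 0.61 ± 0.17 SE (edgeR adjusted p = 0.00470), a call lost without control replicate 1 (adjusted p = 0.0759) and with no scaling factor (adjusted p = 0.588). PRRX1, the main relative of PRRX2, had 6, 6 and 10 exposed and 19, 17 and 14 control reads and a log2 fold change of -0.42 ± 0.51 SE (edgeR adjusted p = 0.514). The proteasome ATPases PSMC1, PSMC3 and PSMC5, with 54, 59 and 83 control reads, did not pass (edgeR adjusted p 0.0551 to 0.673), although PSMC2 of the same ring had no control read. PSMC5 lay near the threshold and passed without exposed replicate 2 (edgeR adjusted p = 0.0353), without exposed replicate 3 (0.0154), with DESeq2 size factors (0.0493) and with a mean of at least 10 reads (0.0288).

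**Figure D4:**
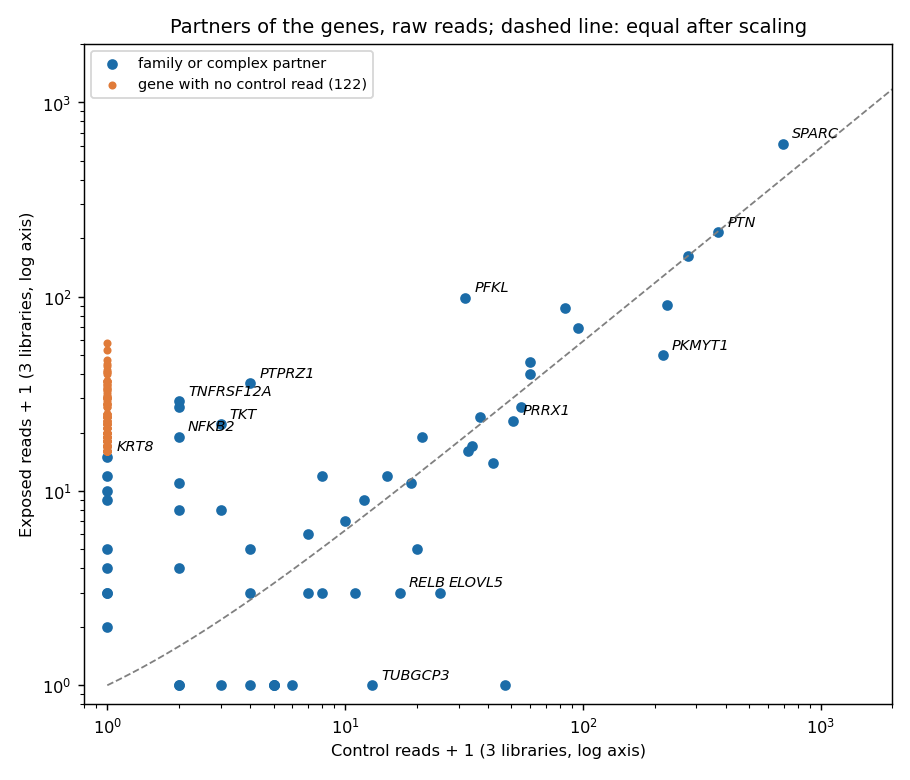
Exposed against control reads, each summed over 3 libraries with 1 added (log axes), for 59 family or complex partners (blue) and the 122 genes (orange, at 0 control reads); the dashed line marks equal levels after scaling (0.586 exposed reads per control read). Partners scatter on both sides of the line, with TUBGCP3 at 0 exposed reads and PFKL, PTPRZ1 and TNFRSF12A above it.

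Pathway lists gave the surroundings of the genes, with the 122 left out, and the lists were written with earlier results of these data known. In 10 lists, 52 other genes were tested, of which 17 rose, 8 fell and 27 did not pass. Over all 2148 tested genes, 24.9% passed as higher and 26.7% as lower. The counts per list, here and below, are small and were not tested against these shares. With no scaling factor 9 rose and 11 fell, so the balance of directions depends on the scaling.

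Of 3 tested autophagy genes, TAX1BP1, an autophagy receptor, had a log2 fold change of -2.79 ± 0.84 SE (edgeR adjusted p = 0.00782), a call lost without exposed replicate 2 (adjusted p = 0.0565), and the others did not pass. The other subunits of the ATG13 complex, ULK1, RB1CC1 and ATG101, had at most 6 reads in either group and were not tested. Of 2 tested NF-kB genes, IKBKG, the regulatory subunit of the canonical kinase, had 28, 29 and 24 exposed and 105, 111 and 104 control reads and fell by 1.22 (SE 0.24, edgeR adjusted p = 0.000276), and the other did not pass. Of 5 mRNA export and pore genes, ENY2 fell by 1.86 (edgeR adjusted p = 0.0288), a call lost without exposed replicate 1 or 3 or control replicate 1 (adjusted p 0.0593 to 0.148), and 4 did not pass. No other intramembrane protease was tested, and HM13 and NCSTN had 8 and 5 exposed and 19 and 37 control reads.

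Of 5 tested homeobox genes outside the 122, CUX1 had 23, 22 and 18 exposed reads and 1 control read (edgeR adjusted p = 1.75e-06). HOXA10, a patterning factor, went the other way, with 1, 0 and 6 exposed and 27, 41 and 18 control reads (log2 -2.78 ± 0.67 SE, edgeR adjusted p = 0.00145), and 3 did not pass. Of 9 scaffold and membrane skeleton genes, the group of MPP1, 4 rose and 5 did not pass. SPTAN1, the common spectrin alpha chain, had 81, 82 and 69 exposed and 65, 77 and 53 control reads. It rose by a log2 of 1.03 ± 0.21 SE after scaling (edgeR adjusted p = 0.000384; with no scaling factor adjusted p = 0.0772). The adducin ADD1 rose by 1.89 ± 0.55 SE (edgeR adjusted p = 0.00679; by DESeq2 0.0706).

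Of 9 chromatin genes listed with SALL2, 3 rose, 1 fell and 5 did not pass. The deacetylase HDAC1 rose by a log2 of 0.69 ± 0.17 SE (edgeR adjusted p = 0.00218; with no scaling factor 0.415), and PHC3, a polycomb protein, had 5, 2 and 2 exposed and 23, 44 and 19 control reads (log2 -2.42 ± 0.57 SE, edgeR adjusted p = 0.00117). Of 4 circadian genes 2 rose, the repressors CRY1, with 29, 22 and 51 exposed reads and 2 control reads, and NR1D1 (log2 1.39 ± 0.31 SE, edgeR adjusted p = 0.000898).

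None of the 122 genes stood in the lists of metal and oxidant defence or of heat shock and folding, which were written for silver exposure. These lists hold 29 and 23 genes of the gene table, in which the 122 are few among 9151 named genes. The lists are also not complete. DNAJB8 and AGR2, among the 122 and classed here under protein folding and turnover, are in neither, so nothing is read from the absence. Of 6 tested defence genes 3 rose, 2 fell and 1 did not pass. Among those that rose, GPX3 had a log2 fold change of 1.85 ± 0.56 SE (edgeR adjusted p = 0.00805). Its call was lost without exposed replicate 1, without control replicate 1 and by the DESeq2 Wald test. NFE2L1 rose by a log2 of 1.40 ± 0.57 SE (edgeR adjusted p = 0.0423), a call lost under 8 of 12 alternatives. NQO1, a quinone reductase controlled by NRF2, had 7, 3 and 15 exposed and 43, 61 and 47 control reads and fell by 1.83 (SE 0.43, edgeR adjusted p = 0.00131), and the stress-induced SESN1 fell by 2.06 (SE 0.49, edgeR adjusted p = 0.00144). Of 9 folding genes 4 rose, 1 fell and 4 did not pass, and the chaperones HSPA5 (log2 1.49 ± 0.25 SE) and HSP90AA1 (1.28 ± 0.19 SE) were among those that rose (edgeR adjusted p = 3.65e-05 and 1.19e-05). HSF2 was the 1 that fell (log2 -1.46 ± 0.15 SE, edgeR adjusted p = 1.00e-07). It had 478, 434 and 606 exposed and 2325, 2797 and 1991 control reads.

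Lists added after the 122 genes were known hold several of them each. Of the mitosis and G2 checkpoint list, 9 of 25 genes in the table were among the 122, and of 4 others tested NUMA1 rose, PKMYT1 and the midzone kinesin KIF23 fell and 1 did not pass. The call for NUMA1 was lost without exposed replicate 1 and without any 1 control library (edgeR adjusted p 0.0750 to 0.194). It was also lost with no scaling factor, without a filter and by the DESeq2 Wald test. KIF23 had 3, 2 and 1 exposed and 14, 29 and 26 control reads (log2 -2.70 ± 0.65 SE, edgeR adjusted p = 0.00146). Of the Golgi and endosome list 8 of 43 were among the 122, and of 9 others tested 3 rose, 2 fell and 4 did not pass. AP3D1, an adaptor subunit of lysosome traffic, rose (log2 1.76 ± 0.24 SE, edgeR adjusted p = 3.79e-06), and the coat subunit COPG2 fell by 2.51 (SE 0.45, edgeR adjusted p = 8.24e-05). Of the hyaluronan list, HAS1 and HYAL2 were among the 122 and VCAN, a proteoglycan that binds hyaluronan, rose by a log2 of 1.24 ± 0.23 SE (edgeR adjusted p = 0.000125). HYAL4 fell by 1.28 (edgeR adjusted p = 0.0237), a call lost without exposed replicate 1 or 3 or control replicate 1 (adjusted p 0.0781 to 0.139), and 1 did not pass. Of the semaphorin and slit list 2 of 6 tested rose, SEMA4B fell by 1.01 (SE 0.17, edgeR adjusted p = 4.85e-05) and 3 did not pass. Of the list of death receptor and inflammasome adaptors, FADD, PYCARD, CARD10 and IRF5 were among the 122 and no other gene was tested.

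**Figure D5:**
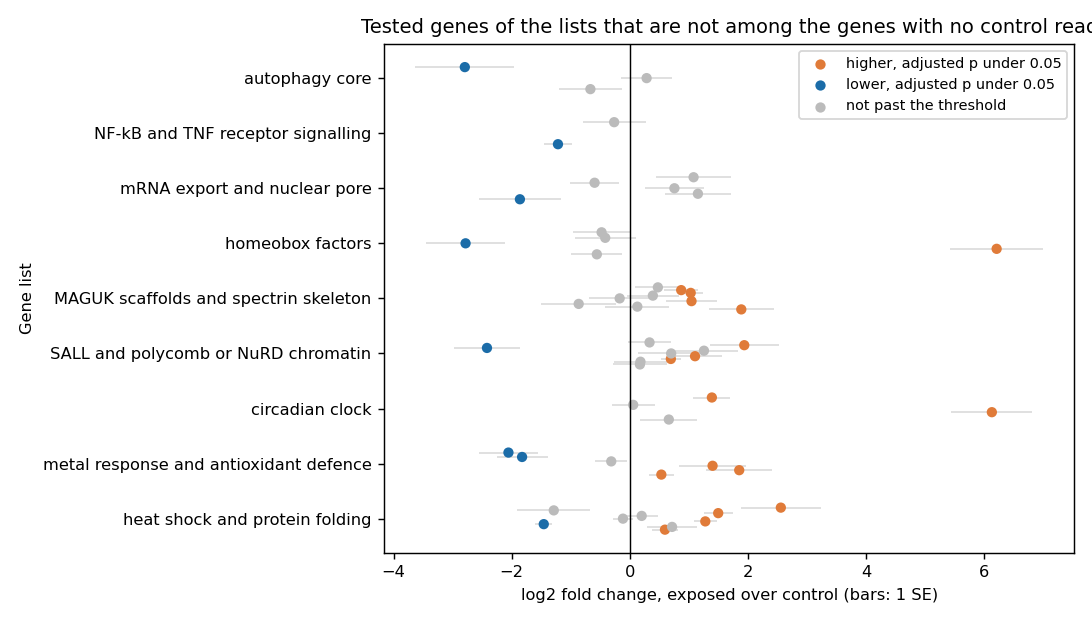
Log2 fold change, exposed over control, of the 52 tested genes outside the 122 in the pathway lists that had a tested gene; bars are 1 SE, orange and blue points passed an edgeR adjusted p of 0.05 as higher and lower, and grey points did not. Genes that passed lie on both sides of 0, with CUX1 and CRY1 farthest to the right.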

How the data were processed

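The authors deposited raw counts per library in 3 tables, per the file headers: reads for 11374 protein-coding genes, junction reads for 3503 circRNAs and reads for lncRNA transcripts. The 18 normalized per-library columns were not used. CASAVA 1.8, BWA and hg19 stand in the submitters' processing notes. For the circRNA caller, read counter, strand setting and annotation, the sources used here give nothing. Libraries were prepared with a kit that records the strand and read for 150 cycles, per the labels' protocols.

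Groups came from the labelled treatment and columns from their headings, which are sample titles. The whole gene table was fitted with edgeR 4.0.16 in R 4.3.3 (TMM, filterByExpr with a minimum count of 10, quasi-likelihood test, Benjamini-Hochberg threshold 0.05), after it was tested on simulated data. CPM uses TMM-scaled library sizes, and SE is the log2 fold change over the square root of F. Fold bounds set 0 control reads to 3 reads over 3 libraries and cover counting error of the control reads only. Reads are not independent molecules. DESeq2 1.42.0, Python 3.11.15, pandas 2.3.3 and matplotlib 3.10.9 were also used. RefSeq assembly ARS1.2 was matched on gene number for 115 of the 122 genes and used only for neighbours. Genes on the X chromosome and unplaced scaffolds were left out. Named genes are the 20 with the highest mean CPM, hosts of circRNAs, tested neighbours with a call, up to 4 called genes per list and genes at the threshold of 15 reads. Other genes were named after their values were seen. The 122 genes, their role classes and all lists were chosen with earlier results of these data known. No sequences were printed. Some genes are counted in the totals but not reported here by name.

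Same-numbered libraries did not pair, with correlations of deviations from group means of -0.03 to -0.01. Alternatives were no filter, a mean of at least 10 reads, no scaling factor, scaling by DESeq2 size factors, the DESeq2 Wald test, a replicate block, leaving out each library, other thresholds of the rule and other neighbour distances.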

Additional observations from a re-analysis of the deposited data

How the results depend on the processing

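The 122 genes became 205 with a minimum of 10 exposed reads, 59 with 20 and 23 with 30, and 49 to 163 when 1 library was left out (49 to 64 without an exposed one, where fewer libraries had to reach 15 reads). Those of the 122 that passed the filter and were called numbered 122 without a filter and by the DESeq2 Wald test, and 10 to 29 when a library was left out. With a mean of at least 10 reads none could pass. The rule fixed the direction of these calls, so nothing is read from their number. Over all 2148 tested genes, 326 rose with no scaling factor. Without a filter 941 rose and 1165 fell of 11374 genes, and by the DESeq2 Wald test 658 rose and 620 fell of 5859. When a library was left out, 553 to 625 rose and 539 to 653 fell of 2528 to 2646 tested genes. The replicate block called 497 higher and 544 lower, against 534 and 574, and the replicate numbers share only a number. For neighbours within 1 kb, 4 rose and 5 fell of 31 without a filter, and 2 rose and 3 fell of 20 by DESeq2. Leaving out a library gave 0 to 2 higher and 2 to 3 lower of 7 to 9 tested. Within 10 kb 1 rose and 5 fell of 15 tested, and of 2 tested overlapping genes 1 fell. In the main fit 24.9% of all tested genes passed as higher and 26.7% as lower. The lists gave 9 higher of 52 with no scaling factor and 20 lower of 266 without a filter.

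The hosts' share of junction reads differed by -0.0663 percentage points, by -0.129 to 0.0249 when a library was left out, the latter without exposed replicate 1 (exact permutation p = 0.7). Of 57 named genes outside the 122, 21 changed their call under some alternative and none changed sign past the threshold. JARID2, EPB41L2, NFE2L1, GOLGA3, COPG1 and NUMA1 lost it under 7 to 10 of 12. Depth limits all 122 genes, of which 23 had at least 30 reads.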

Other observations

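The same count pattern was found in 26 further rows, 21 without a gene name and 5 excluded by their name prefix. SLC23A1, a vitamin C transporter, had 14, 21 and 21 exposed reads. The most counted rows without a name were ENSCHIG00000009286 (24, 16 and 14 exposed reads) and ENSCHIG00000025589 (23, 10 and 18). A single control read kept other genes out. BACH1, a repressor of heme oxygenase and ferritin genes, had 22, 11 and 10 exposed reads and 1 control read, FOXP4, a forkhead factor, 21, 8 and 12 and 1, and UHRF1, which maintains DNA methylation, 15, 5 and 14 and 1. These genes were named after their values were seen.

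Even counts made up 50.7% of the exposed and 54.1% of the control values above 0 in the whole gene table. Among the 366 exposed values of the 122 genes, 224 were even (61.2%), with 52 values of 4 against 14 of 3 and 29 of 5. Over the whole gene table the control libraries had 3822 values of 2 against 3328 of 1 and 2444 of 4 against 1503 of 3. Exposed libraries had 3991 values of 1, 3144 of 2, 1367 of 3 and 2116 of 4. Whether both mates of a read pair were counted is not given in the sources used here.

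Of the 122 genes, SH3GLB2 and DOLPP1 lay with 1 protein-coding gene between them in the RefSeq order, and ADIPOR2 and DCP1B with 2.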
